A study of Homo sapiens with 6 samples.

Results

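The ZNF symbols are numbered names given to human zinc finger genes, and 486 of the 18132 genes measured on these arrays carry one. The 129 described here were selected on signal: of the probe sets that name a single gene, the brightest per gene by the mean over all 6 arrays was used, and the gene was kept where that mean was at least 7.0 log2 units. The other 357 ZNF genes lay below 7.0. The RNA came from HCT-116, an established human colorectal carcinoma line grown in RPMI medium with serum. There were 3 arrays of cells given the vehicle DMSO and 3 of cells given AAPK, a compound named in the series title as inhibiting both Aurora A and PLK-1, kinases that drive mitosis. The treatment field, identical for all 6 samples, gives 10 µM for 48 h, and the sample description says that the line has high Aurora-A and PLK-1. The comparison asks how the compound changed gene expression.

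Most ZNF genes encode proteins with tandem C2H2 fingers, loops held by a zinc ion through paired cysteines and histidines that read a few bases of DNA each. Many carry a KRAB domain, which recruits the co-repressor TRIM28 and, through it, the histone methyltransferase SETDB1 and HP1 proteins to silence retroelements and other targets. Others do unrelated work, since the symbol marks a finger and not a function: among them are ubiquitin and SUMO ligases, ribosome assembly factors and RNA-binding proteins.

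The members' means ran from 7.001 to 10.38, with a median of 7.78. The rule marks a level of signal and does not show that a transcript was present. The median of all genes was 7.10, so 9487 of the 18132 genes also reached 7.0, and so did markers of other cell types: HBB, a haemoglobin chain, at 8.47 and PECAM1, an endothelial adhesion molecule, at 7.73. Of 7 measured blood cell markers 4 reached the level, as did 3 of 6 endothelial, 1 of 8 fibroblast and 4 of 12 colorectal epithelial markers. The genes are therefore called here ZNF genes at 7.0 or more, not expressed ZNF genes. Among the epithelial markers the keratin genes KRT18 and KRT8 were at 12.48 and 11.93, whereas EPCAM was at 3.42 on its brightest probe set and CDH1, E-cadherin, at 5.11. Both are known to be well expressed in HCT-116, so these 2 values go against the label; the reason was not tested. Of these marker lists only KRT8 passed the test described below, with a log2 change of 0.17; the summed log2 level of the 12 epithelial markers was 77.96 to 78.37 on the DMSO arrays and 77.99 to 78.2 on the AAPK arrays.

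At the edge of the rule, ZNF503, ZNF764 and ZNF875 lay just inside, with means of 7.001, 7.01 and 7.05, and ZNF827, ZNF276 and ZNF578 lay just outside, at 6.996, 6.994 and 6.994. Both group means reached 7.0 for 128 members, and for 1, ZNF503, only the DMSO mean did; none was a member through AAPK alone. The rule used the mean over both groups and not the difference between them, though it was set with earlier results of these data known.

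ZNF genes at 7.0 or more were more often lower than higher in AAPK. Of the 129, 20 fell, 5 rose and 104 did not pass limma's test at an adjusted p of 0.05, with Benjamini-Hochberg adjustment over all 18132 genes. That is 15.5% lower and 3.88% higher. Over all genes 7.26% were lower and 8.11% higher, and among the 9487 genes at 7.0 or more, the closer background in signal, 10.2% were lower and 14% higher. The members' changes were small: their median, AAPK minus DMSO on the log2 scale, was -0.037, against -0.016 over all genes and -0.0072 over genes at 7.0 or more. A change below 0 was seen in 94 of the 129 (72.9%) and in 52.7% of genes at 7.0 or more. With each array centred on its median gene, 15 members fell and 5 rose, and 7.91% of genes at 7.0 or more were lower and 17% higher. These shares are descriptions, and no test was made over the members as a list.

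The array values gave the same picture without the model. The 3 AAPK arrays lay wholly below the 3 DMSO arrays for 34 members (26.4%) and wholly above for 10 (7.75%), where 21.3% and 23.7% of genes at 7.0 or more did so. The median member had a log2 signal of 7.83, 7.84 and 7.85 with DMSO and of 7.75, 7.79 and 7.78 with AAPK, while the median gene stood at 7.11, 7.12 and 7.11 and at 7.08, 7.08 and 7.09. Every AAPK array was thus below every DMSO array for both medians. The arrays read RNA pooled over cells, so less transcript in each cell and loss from a share of the cells cannot be told apart.

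**Figure D1:**
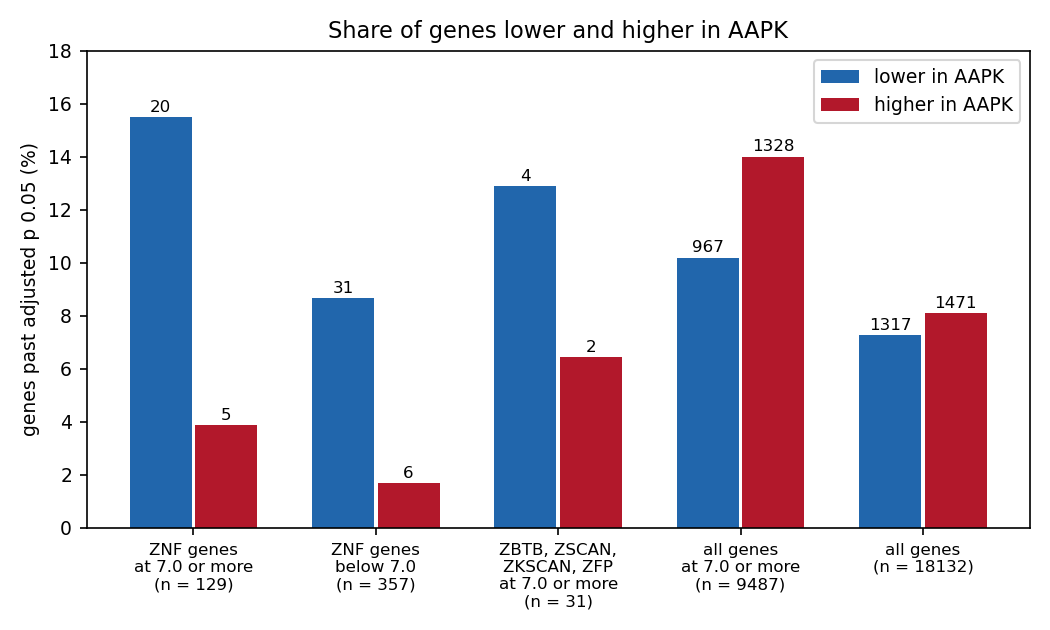
Share of genes past adjusted p 0.05 (vertical axis, percent), lower (blue) and higher (red) in AAPK, for 5 groups of genes, with the number of genes printed over each bar. The lower bar exceeds the higher one for the ZNF genes at 7.0 or more (20 against 5), and the reverse holds for all genes at 7.0 or more (967 against 1328). For the ZNF genes below 7.0 the lower bar is also the higher of the pair (31 against 6). No bar shows all genes below 7.0, which also fell more often than they rose.

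Of the 357 ZNF genes below 7.0, given for comparison, 31 fell and 6 rose, with a median of -0.041. The shares of falls and rises were 8.68% and 1.68%, where 7.26% of all genes were lower and 8.11% higher. All genes include those at 7.0 or more, which passed more often in both directions, so this background is not matched in signal. Of the 1471 rises over all genes 1328 were at 7.0 or more, as were 967 of the 1317 falls. Genes below 7.0 as a whole thus also fell more often than they rose. Shares for all genes below 7.0 were not counted, so neither ZNF share is read as near or far from a background. Of 31 genes at 7.0 or more named ZBTB, ZSCAN, ZKSCAN or ZFP, whose products are also C2H2 proteins, 4 fell and 2 rose, with a median of -0.066. These shares, 12.9% and 6.45%, stood beside 10.2% and 14% of all genes at that level. The 20 ZBTB genes split evenly, with 2 falls and 2 rises, the 3 ZFP genes had 2 falls, and none of the 5 ZSCAN and 3 ZKSCAN genes passed limma's threshold (1 of each had an unadjusted p under 0.05). The largest of these falls was that of ZBTB38, a methyl-CpG-binding factor, at -0.70. This count of 6 was 2 without DMSO replicate 1, AAPK replicate 1 or AAPK replicate 2, 3 without DMSO replicate 3, and 4 without DMSO replicate 2 or AAPK replicate 3.

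ZNF146, which encodes a protein made almost only of zinc fingers, fell most among the members. The 3 DMSO arrays read 9.38, 9.40 and 9.51 in log2 signal, and the 3 AAPK arrays 8.74, 8.65 and 8.80, with no overlap. The change was -0.70 ± 0.06 (SE, n = 3 per group; limma adjusted p = 2.84e-05), a 1.63-fold lower signal. Both of its other probe sets fell as well, by 0.66 and 0.64 on the log2 scale.

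ZNF770 came next, from 9.24, 9.19 and 9.31 in DMSO to 8.63, 8.60 and 8.58 in AAPK. The change was -0.64 ± 0.05 (adjusted p = 1.70e-05), 1.56-fold lower, but its second, dimmer probe set was at -0.10, short of the threshold. Averaged over the pair, the change was -0.37 and passed.

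At the other end stood ZNF207, which encodes BuGZ, a microtubule-binding protein that loads the checkpoint protein BUB3 onto kinetochores. It was the brightest member of all and the one that rose most. Its signal went from 10.15, 10.14 and 10.17 in DMSO to 10.58, 10.56 and 10.67 in AAPK, a change of 0.45 ± 0.05 (adjusted p = 1.58e-04) or 1.37-fold. Its other probe sets rose by 0.42 and 0.50.

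ZNF638, an RNA-binding nuclear protein that brings the HUSH silencing complex to unintegrated retroviral DNA, rose from 8.84, 8.74 and 8.94 to 9.21, 9.20 and 9.25. The change was 0.38 ± 0.06 (adjusted p = 0.00113), and each of the 5 dimmer probe sets lay above 0, 4 of them past the threshold.

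**Figure D2:**
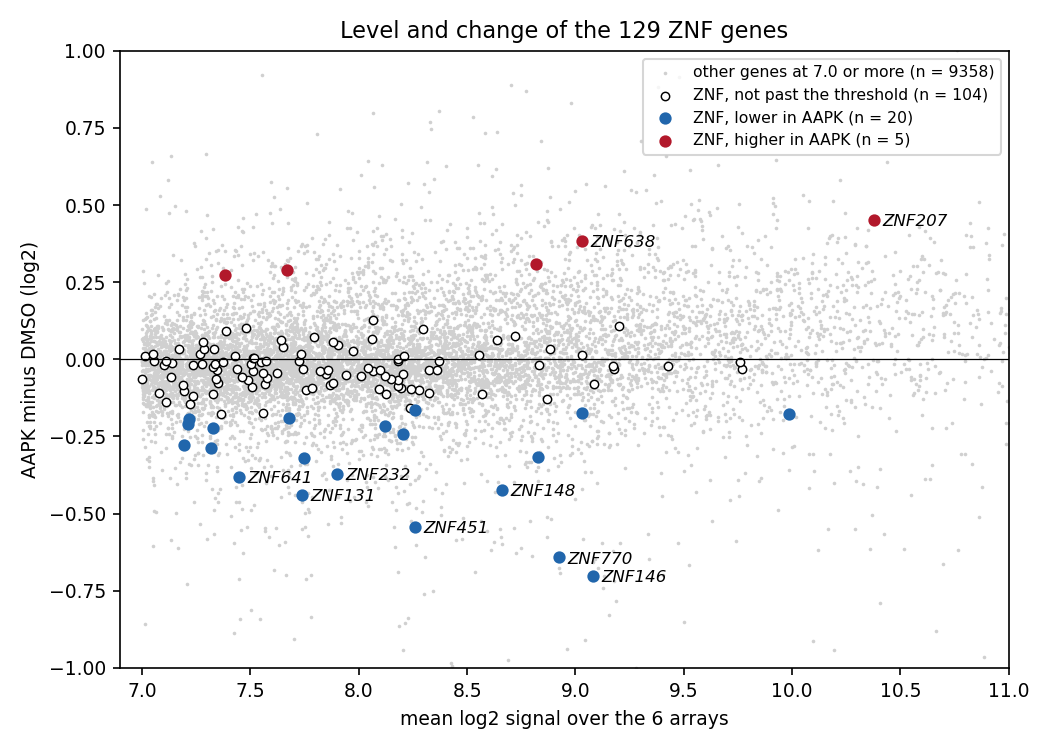
Mean log2 signal over the 6 arrays (horizontal axis) against AAPK minus DMSO on the log2 scale (vertical axis) for the 129 ZNF genes and, in grey, the other genes at 7.0 or more, of which 352 lie outside the axes. The 104 open circles lie near 0 at all levels; ZNF146 at -0.70 and ZNF207 at 0.45 mark the ends.

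The promoters of these 4 genes, as RefSeq annotates them on GRCh38.p14, are printed because they head the falls and the rises, and that of ZNF331 because it holds 3 matches to the strings searched for. Each run is the 250 bases before the annotated start, on the gene's strand, in lower case with any match in capitals. ZNF146 is at chr19:36214856-36215105 on the plus strand, ZNF770 at chr15:34988288-34988537 on the minus strand, ZNF207 at chr17:32349907-32350156 and ZNF638 at chr2:71331532-71331781, both on the plus strand, and ZNF331, which has 6 annotated starts, at chr19:53520764-53521013 on the plus strand.

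ZNF146: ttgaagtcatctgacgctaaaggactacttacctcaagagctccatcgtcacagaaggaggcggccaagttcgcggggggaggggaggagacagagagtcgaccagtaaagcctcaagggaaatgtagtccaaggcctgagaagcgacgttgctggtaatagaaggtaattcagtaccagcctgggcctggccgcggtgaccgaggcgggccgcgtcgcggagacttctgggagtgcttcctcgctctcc
ZNF770: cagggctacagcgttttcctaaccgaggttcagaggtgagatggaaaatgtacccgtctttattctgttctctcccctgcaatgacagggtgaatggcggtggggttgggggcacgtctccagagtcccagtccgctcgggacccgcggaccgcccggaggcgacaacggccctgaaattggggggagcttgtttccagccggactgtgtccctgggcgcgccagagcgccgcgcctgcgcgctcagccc
ZNF207: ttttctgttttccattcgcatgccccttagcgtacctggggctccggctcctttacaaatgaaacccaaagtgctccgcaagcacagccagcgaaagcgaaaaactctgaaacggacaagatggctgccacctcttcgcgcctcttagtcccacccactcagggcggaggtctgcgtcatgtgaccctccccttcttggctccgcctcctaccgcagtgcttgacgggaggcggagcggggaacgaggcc
ZNF638: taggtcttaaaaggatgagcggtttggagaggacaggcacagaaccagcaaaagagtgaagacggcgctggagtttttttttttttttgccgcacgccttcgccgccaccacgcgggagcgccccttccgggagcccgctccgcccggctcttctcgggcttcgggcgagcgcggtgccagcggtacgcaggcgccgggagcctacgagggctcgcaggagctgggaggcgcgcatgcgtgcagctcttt
ZNF331: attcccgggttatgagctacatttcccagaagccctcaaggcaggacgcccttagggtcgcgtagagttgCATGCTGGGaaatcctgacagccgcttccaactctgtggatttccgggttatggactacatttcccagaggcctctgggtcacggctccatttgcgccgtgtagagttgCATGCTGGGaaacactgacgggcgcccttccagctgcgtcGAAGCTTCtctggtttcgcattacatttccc

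The table held promoters for 110 of the 129 members, 153 in all, since 27 members have several starts. The stretch from 250 bases before the start to 50 after it was searched on both strands. TGATGNAA, a form of the composite site bound by ATF4 and its partners, was in 1.31% of the members' promoters and 3.62% of all 35116, and in 0 of the 31 promoters of members that fell. GAANNTTC, a pair of heat shock factor units, was in 5.23% and 6.77%. TGACGTCA, the CREB palindrome, was in 5.23% and 1.85%; of members past the threshold, only ZNF562 held it. CCCAGNATG, part of the site of ZNF143, itself a ZNF activator, was in 3.27% and 1.83%, and of members past the threshold only ZNF331 held it, at 2 places, beside 1 heat shock string; the other fall with a heat shock string was ZNF644. The median GC content before the start was 64.4% for the members' promoters, 66.0% for those that fell and 58.0% for all. None of the 4 strings was found in the windows of ZNF146, ZNF770, ZNF207 or ZNF638.

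Among members listed here as sequence-specific activators, 4 of the 8 at 7.0 or more (of 12 listed) fell and 0 rose. The background was 10.2% lower and 14% higher, and the median change of the 8 was -0.15. By limma's unadjusted p under 0.05, 5 were lower and 1 higher, beside 1630 and 1949 of the 9487 genes at 7.0 or more. The list groups genes by name, and whether each acts as an activator in these cells was not tested. The count of 4 falls was 2 without DMSO replicate 1 or 3 or AAPK replicate 1 or 2, where ZNF410 and ZNF384 were lost, and 3 without DMSO replicate 2 or AAPK replicate 3. After ZNF146 came ZNF148, also called ZBP-89, which binds GC-rich promoters. Its signal was 8.86, 8.83 and 8.93 in DMSO and 8.44, 8.49 and 8.41 in AAPK, a change of -0.42 ± 0.05 (adjusted p = 2.43e-04), with no overlap. It was the best covered of the falls: all 8 of its other probe sets were below 0, from -0.60 to -0.12, and 7 of them passed.

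ZNF410, whose main known target is the chromatin remodeller gene CHD4, had a smaller change of -0.24 (adjusted p = 0.0140), and its 8 other probe sets were all below 0. CHD4 itself was at 0.09 (95% interval -0.03 to 0.20; adjusted p = 0.342) and did not pass. ZNF384, a fusion partner in acute lymphoblastic leukaemia, was at -0.17 (adjusted p = 0.0437). The others did not pass: ZNF24 was at -0.13, ZNF76 at -0.07, ZNF263 at -0.06 and ZNF281, which binds GC boxes as ZNF148 does, at 0.13 (adjusted p = 0.109).

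Members that work in chromatin or co-repressor complexes had 2 falls and 0 rises among 7 at 7.0 or more (of 16 listed), where the background was 10.2% lower and 14% higher. Their median was -0.10. By limma's unadjusted p under 0.05, 3 were lower and 0 higher, beside 1630 and 1949 of the 9487 genes at 7.0 or more. ZNF131, a BTB-domain zinc finger factor, went from 7.98, 7.84 and 8.05 to 7.52, 7.57 and 7.47, a change of -0.44 ± 0.06 (adjusted p = 7.29e-04); its other probe set was at -0.24 and did not pass. ZNF644, a partner of the H3K9 methyltransferases G9a and GLP, went from 8.97, 8.95 and 9.03 to 8.58, 8.69 and 8.73, a change of -0.32 ± 0.05 (adjusted p = 0.00246). The groups did not overlap for either gene. ZNF644 depended on the probe set: its second brightest passed at -0.26, the 5 others ran from -0.15 to 0.15 without passing, and the mean over all was -0.06 (adjusted p = 0.411). ZNF217, a colorectal and breast cancer gene that works with the demethylase LSD1, was at -0.10 (95% interval -0.21 to 0.02; adjusted p = 0.272).

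Of 10 listed members with roles in ribosomes, translation or RNA, all at 7.0 or more, 2 rose and 1 fell, which is near the 14% and 10.2% of the background, and the median was -0.06. Besides ZNF638, ZNF326 rose, from 8.64, 8.66 and 8.69 to 9.05, 8.91 and 8.95. It encodes a subunit of the DBIRD complex, which links RNA polymerase II to splicing. Its change was 0.31 ± 0.05 (adjusted p = 0.00201), and its 3 other probe sets were above 0, 2 of them past the threshold. ZNF598, the ubiquitin ligase that marks collided ribosomes, fell from 8.25, 8.24 and 8.19 to 7.99, 8.05 and 8.001 on its single probe set, a change of -0.22 ± 0.04 (adjusted p = 0.00781). ZNF622, which helps to mature the large ribosomal subunit, was one of the brightest members, with a mean of 9.76, and was at -0.01 (95% interval -0.12 to 0.11; adjusted p = 0.955).

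Of 12 KRAB repressors with known targets only 2 reached 7.0, and neither passed: ZNF274, which recruits SETDB1 to the ends of zinc finger genes, was at -0.18 (adjusted p = 0.124; its unadjusted p was under 0.05 in limma's test) and ZNF496 at -0.03. Without AAPK replicate 3, 1 of the 2, ZNF274, passed. The 101 members on none of these role lists held the other calls, 13 lower and 2 higher, and a median of -0.033.

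Among the falls off the lists, ZNF451, a SUMO ligase, was the least uniform. Its brightest probe set went from 8.60, 8.40 and 8.59 to 7.94, 7.92 and 8.10, a change of -0.54 ± 0.07 (adjusted p = 4.88e-04). A second probe set also fell, by 0.18 on the log2 scale, while 3 dimmer ones had changes from 0.12 to 0.20, and the one at 0.20 passed. The mean over all 5 was -0.04 (adjusted p = 0.515). ZNF451 was the only member past the threshold with another probe set past it in the opposite direction.

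ZNF232, which has a SCAN domain, was at -0.37 (adjusted p = 0.00441) while of the 4 dimmer probe sets 3 passed too, 2 of them with larger changes of -0.54 and -0.56. ZNF84, a KRAB protein gene, was at -0.32 (adjusted p = 0.00129) and its other probe set passed at -0.26. ZNF641 went from 7.66, 7.63 and 7.63 to 7.14, 7.37 and 7.26, and ZNF558, also a KRAB protein gene, from 7.40, 7.53 and 7.46 to 7.17, 7.18 and 7.18. Their changes were -0.38 and -0.29, and all of their other probe sets were below 0. ZNF277, ZNF195, ZNF252P and ZNF280B followed at -0.28, -0.22, -0.21 and -0.19; ZNF252P is a pseudogene, the only one among the members. ZNF777, ZNF213 and ZNF331, an imprinted gene, closed the falls at -0.19, -0.18 and -0.16.

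Among the rises, ZNF562 went from 7.61, 7.35 and 7.61 to 7.71, 7.79 and 7.95, a change of 0.29, with DMSO replicate 2 apart from the other DMSO arrays. ZNF292, a large gene mutated in chronic lymphocytic leukaemia, went from 7.21, 7.17 and 7.36 to 7.48, 7.58 and 7.501, a change of 0.27. The groups did not overlap for any of the 25.

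**Figure D3:**
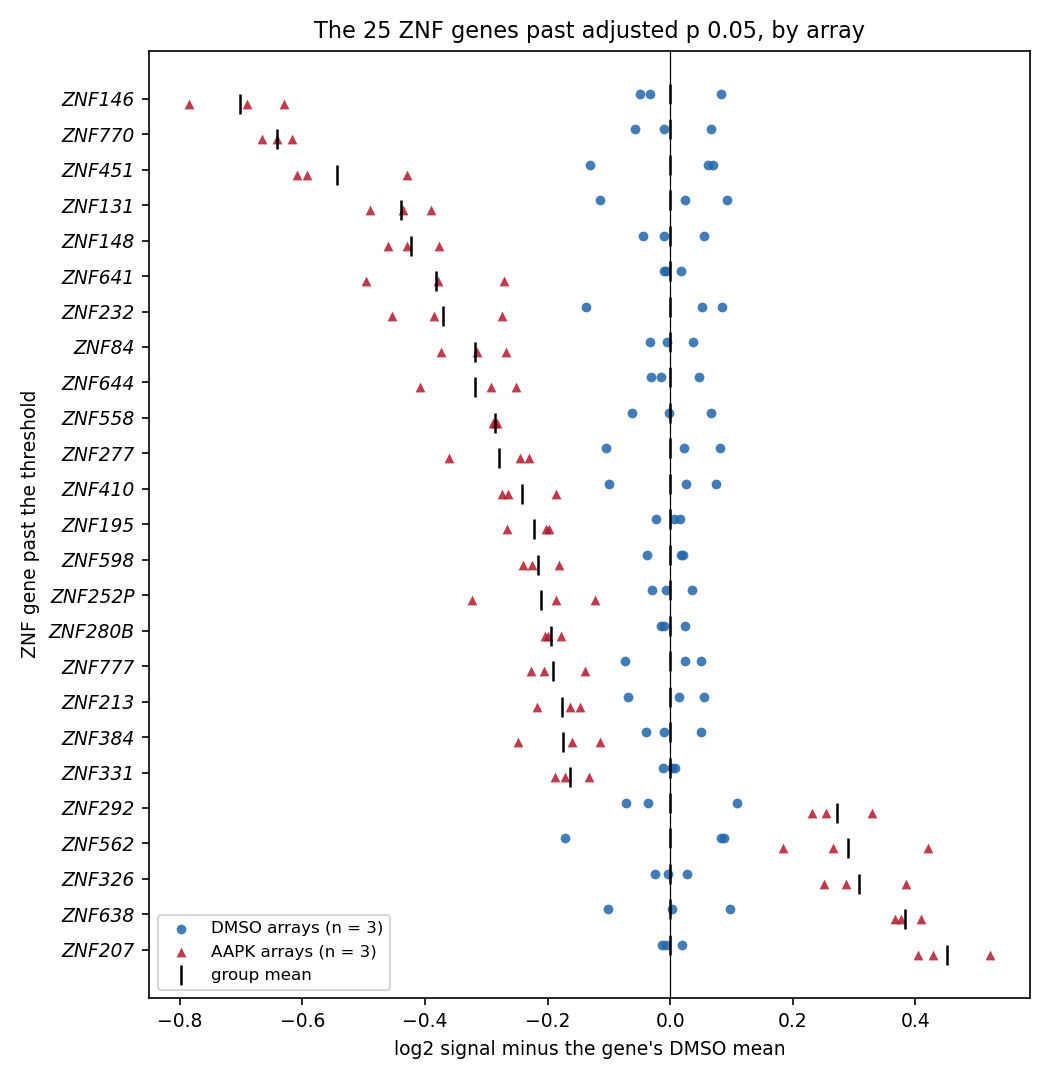
Log2 signal on each array minus the gene's DMSO mean (horizontal axis) for the 25 ZNF genes past the threshold, with the DMSO arrays as blue circles, the AAPK arrays as red triangles and the group means as black bars. The AAPK arrays lie clear of the DMSO arrays in every row, with mean changes of -0.70 for ZNF146 at one end and 0.45 for ZNF207 at the other.

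Zinc finger genes have close copies, and a probe set may read more than 1 transcript. Among the members 12 used a probe set with the suffix _s_at and 18 one with _x_at, which mark probes shared between transcripts or prone to cross-hybridise. Without these 30, 15 of 99 members fell and 3 rose. The falls that dropped out were ZNF770, ZNF451, ZNF195, ZNF598 and ZNF777, and the rises were ZNF562 and ZNF638. Of the 25 members past the threshold 24 had other probe sets, 87 in all, of which 74 had the sign of the brightest one. With adjustment over all 49395 probe sets, 30 passed with that sign, in 14 genes. In that fit the brightest probe sets of ZNF213 and ZNF384 fell short themselves (limma adjusted p = 0.0509 and 0.0612). On 1 probe set the opposite sign passed, that of ZNF451. All other probe sets shared the sign for 17 of the 24. The probe set with the largest spread over the arrays turned 4 members for which either probe set passed. ZNF280B was at 0.03 (adjusted p = 0.848) and ZNF292 at -0.15 (adjusted p = 0.381) on it, and neither passed. ZNF503, at -0.06 on its brightest, was at 0.26 and passed (adjusted p = 0.0229), and ZNF706, at 0.06 on its brightest, was at -0.31 and passed (adjusted p = 0.00824).

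**Figure D4:**
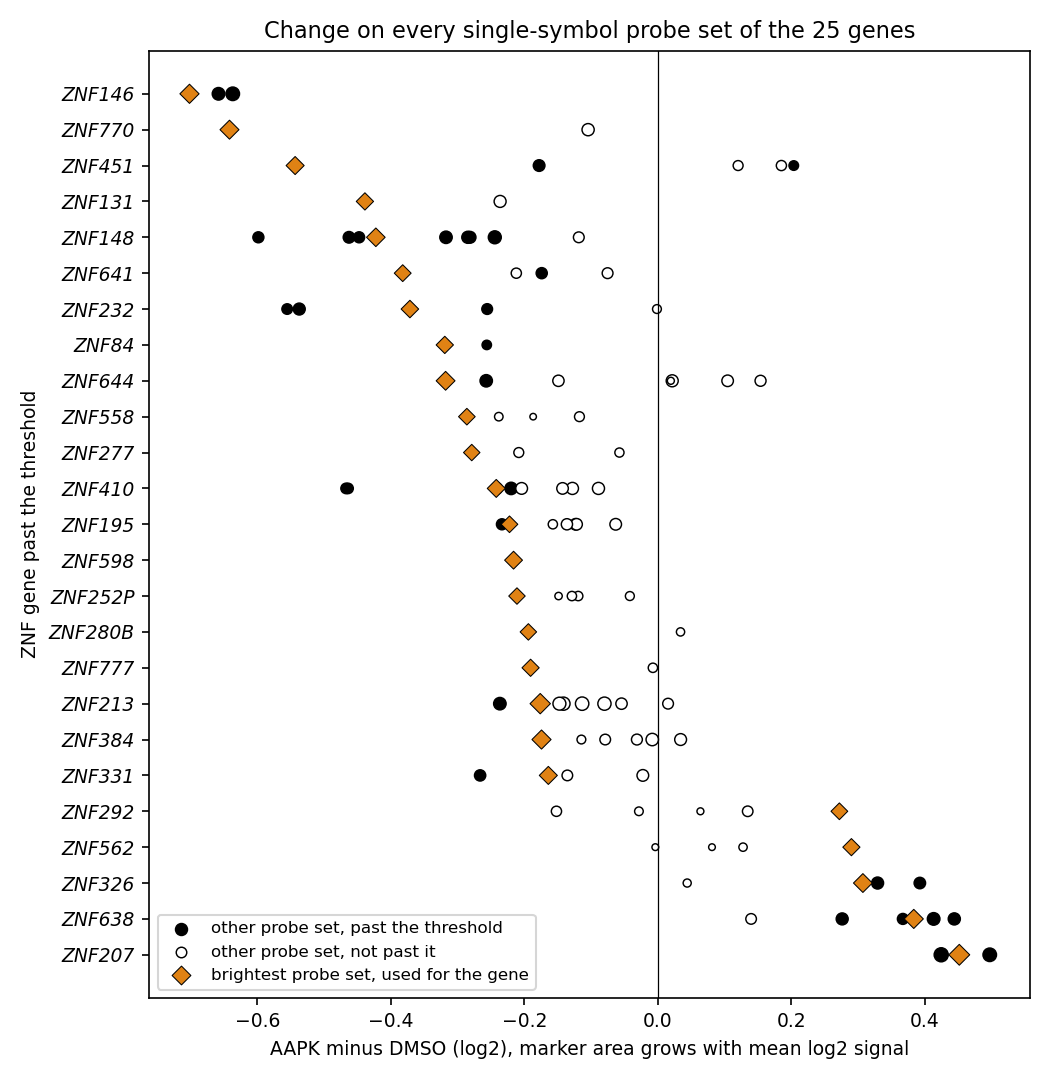
AAPK minus DMSO on the log2 scale (horizontal axis) on every single-symbol probe set of the 25 genes, with the brightest, used for the gene, as an orange diamond and the others as circles, filled where they passed the threshold; marker area grows with mean signal. The probe sets of ZNF148, ZNF207 and ZNF638 lie on one side of 0, while those of ZNF451 lie on both, from -0.54 to 0.20.

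Some calls were lost when 1 array was left out, and these were not always the smallest changes. ZNF280B, at -0.19, kept its call whichever array was left out, while ZNF562, at 0.29, did not. The calls on ZNF384 and ZNF331 were lost whichever array was left out, with changes from -0.20 to -0.14 and from -0.18 to -0.15 and adjusted p up to 0.163 and 0.0885. ZNF213 was lost without any array but DMSO replicate 3 (adjusted p up to 0.119), and ZNF252P without any but AAPK replicate 2 (up to 0.110). ZNF410 and ZNF777 were lost without DMSO replicate 1 or 3 or AAPK replicate 1 or 2 (up to 0.0574 and 0.117), and ZNF562 without DMSO replicate 2 or AAPK replicate 2 or 3 (up to 0.115). The other 18 calls held whichever array was left out, and 13 of the 25, 10 falls and 3 rises, held under all 16 settings in which every gene was refitted.

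Among the brightest members, ZNF207 and ZNF213 passed, while ZNF513, ZNF622 and ZNF771 did not. After ZNF207 came ZNF213, with a mean of 9.99, which fell by 0.18 on the log2 scale, then ZNF513 at 9.77, ZNF622 at 9.76 and ZNF771 at 9.43, with changes of -0.03, -0.01 and -0.02. By level, 6 of 42 members between 7.0 and 7.5 fell (14.3%) and 1 rose (2.38%). Between 7.5 and 8.5, 8 of 63 fell (12.7%) and 1 rose (1.59%). At 8.5 or more, 6 of 24 fell (25%) and 3 rose (12.5%), the largest shares of the 3 levels. Over all genes at 7.0 or more 10.2% were lower and 14% higher. The shares of all genes within each level were not counted, so the levels have no matched background.

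By position in RefSeq's annotation, 37 members lie on chromosome 19, where human zinc finger genes form large clusters, and 92 elsewhere. On chromosome 19, 3 fell (8.11%) and 1 rose (2.7%), with a median of -0.020, and elsewhere 17 fell (18.5%) and 4 rose (4.35%), with a median of -0.052. Of all genes at 7.0 or more, on any chromosome, 10.2% were lower and 14% higher. Other genes of chromosome 19 at 7.0 or more were lower in 5.44% and higher in 7.15%. Whether the members differ by chromosome was not tested. Of 16 pairs of members that are next to each other among protein-coding genes, 5 had both changes below 0, 2 both above 0 and 9 opposite signs, and in 0 pairs did both pass limma's threshold; in 1, ZNF777 beside ZNF746, either did.

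Of 30 measured genes (of 31 listed) for the machinery that KRAB proteins recruit, 5 fell and 3 rose, with a median of 0.02. These shares, 16.7% and 10%, stood beside 10.2% and 14% of all genes at 7.0 or more, and beside 7.26% and 8.11% of all genes. Against the first of these the calls together were near the background. The list was not filtered by level, and RESF1, WIZ and EHMT2 had means of 5.35, 6.65 and 6.76, so neither background is fully matched. UHRF1, which guides DNA methylation to replicated DNA, had 9.30, 9.18 and 9.41 in DMSO and 8.90, 8.98 and 8.81 in AAPK, a change of -0.40 ± 0.07 (adjusted p = 0.00236). MORC2, an ATPase that works with the HUSH complex, was at -0.34 (adjusted p = 0.00262), and CHD3, a NuRD remodeller that binds TRIM28, at -0.32 (adjusted p = 0.00168). RESF1 and DNMT1, the maintenance DNA methyltransferase, both fell by 0.19 on the log2 scale. The rises were those of PPHLN1, a HUSH subunit, at 0.27, and of CBX3 and CBX1, which encode HP1 proteins, at 0.19 and 0.17.

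TRIM28 itself did not pass. It was at 7.94, 8.07 and 8.03 in DMSO and at 8.39, 8.29 and 7.87 in AAPK, so that AAPK replicate 3 lay below all DMSO arrays while the others lay above them (change 0.17, 95% interval -0.07 to 0.42; adjusted p = 0.370). SETDB1 was at -0.14 (95% interval -0.23 to -0.04; adjusted p = 0.0572), with no overlap between the groups. The count of 8 genes was 5 without DMSO replicate 1 or 3 or AAPK replicate 1 or 2, and 5 with quantile normalization.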

How the data were processed

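RNA was isolated in Trizol and turned into biotinylated target by in vitro transcription for Affymetrix arrays, per the labels' protocols. In the deposited table, 49395 probe sets have log2 values on each of 6 arrays; the log2 scale was read from the values. How the authors corrected background, normalized and summarised probes is not given in the sources used here; nearly equal quartiles show that arrays had been normalized to each other, so changes are relative to the bulk of genes.

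Groups came from the titles. Probe sets naming 1 gene symbol (44988, without Affymetrix controls) gave 18132 genes, by the brightest probe set. AAPK was compared with DMSO with limma 3.58.1 in R 4.3.3 (lmFit, eBayes, group only, two-sided, Benjamini-Hochberg over all genes, threshold 0.05), after the script was tested on simulated data. Nothing says that replicates were separate cultures, so p-values cover only the spread among these samples, perhaps a technical one; 3 arrays per group limit the precision.

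The members, gene lists and alternatives were chosen with earlier results of these data known. Genes were named by a written rule: the 12 largest falls and 10 largest rises without overlap, the 5 brightest members, 3 on each side of 7.0, every listed member past the threshold, and co-repressor genes (3 largest changes, TRIM28, SETDB1). Other names, such as the remaining falls, ZBTB38 and the unpassed list members, were chosen after their values were seen. A planned grouping by protein domain was not made, since protein sequences are not used here. Arrays of 1 group correlated at 0.9976 to 0.9983 across probe sets, and arrays of different groups at 0.9942 to 0.9954.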

Additional observations from a re-analysis of the deposited data

How the results depend on the processing

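The falls outnumbered the rises under every alternative tried: 14 to 23 members of 129 fell and 4 to 6 rose over the refits of all genes. The shares of all genes at 7.0 or more also moved with the setting, so these counts alone do not give the distance from the background. Without AAPK replicate 1, 10.9% of members and 7.07% of these genes were lower. With quantile normalization the shares were 16.3% and 11.9%, and averaging each gene's probe sets 11.6% and 10.4%. In each refit the members' share was the larger for falls and the smaller for rises. Leaving out 1 array gave 14 to 20 falls, 4 to 5 rises and a median of -0.050 to -0.029, with 5 to 7 co-repressor genes and 2 to 4 genes of the other C2H2 families past the threshold. The median of the members, -0.037, was -0.052 with quantile normalization, -0.0073 with each array centred on its median gene, -0.048 averaging each gene's probe sets and -0.057 on the probe set with the largest spread; centring moved the median of all genes from -0.016 to 0.013 and left 15 falls and 5 rises. With quantile normalization 5 co-repressor genes passed. Rises numbered 3 without probe sets ending in _s_at or _x_at, by construction fewer genes. On the probe set with the largest spread ZNF280B was at 0.0341, ZNF292 at -0.1518, ZNF503 at 0.2647 and ZNF706 at -0.3057. With the replicate block 17 members fell and 5 rose, and 5 co-repressor and 3 other C2H2 genes passed. The correlations of same-numbered deviations were -0.0194, -0.227 and -0.0472. Deviations of 3 normalized arrays from their own mean cannot show whether same-numbered arrays were handled together. The labels do not say, so this stays unknown. With members at 6.5 or more 28 of 187 fell (15%) and 6 rose (3.21%). At 7.5 or more 14 of 87 fell (16.1%) and 4 rose (4.6%). The shares of all genes above these levels were not counted. The causes of these shifts were not tested. How far each probe set lay above background is not known here, which limits what the dimmer probe sets can show.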

Other observations

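Of 55 probe sets that name a ZNF gene together with other genes, and so stood outside the gene fit, 16 reached a mean of 7.0 and 0 of these passed limma's threshold over all probe sets (1 had an unadjusted p under 0.05). Of the dimmer ones 3 passed, all lower in AAPK: a probe set shared by ZNF302, ZNF181 and ZNF807P at -0.69, one shared by ZNF280D and TCF12-DT at -0.40, and one shared by KRABD4 and ZNF674 at -0.21, with mean signals of 5.34, 4.03 and 5.12.

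Among the ZNF genes below 7.0, chosen after their values were seen, ZNF45 fell most, by 0.52 on the log2 scale, followed by ZNF181 at -0.46, ZNF273 at -0.46 and ZNF318 at -0.45. The largest rises there were those of ZNF271P, a pseudogene, at 0.39 and of ZNF831 at 0.37. A second probe set shared by ZNF302, ZNF181 and ZNF807P was at -0.10 (adjusted p = 0.270 by limma) and did not pass.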
